A study of Mus musculus with 4 samples.

Results

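The amino acid transporter genes were taken as every row of the count table whose symbol belongs to the solute carrier families Slc1, Slc3, Slc6, Slc7, Slc36, Slc38 or Slc43 and ends in a plain member number, which gave 61 of 49997 genes in 7 families, of which 60 are described here. RNA-seq compared pluripotent cells of the mouse E14 embryonic stem cell (ESC) line carrying a lentiviral short hairpin RNA that was either scrambled (shScramble, 2 libraries) or directed at Ythdf2 (shYthdf2, 2 libraries). Ythdf2 encodes a reader of N6-methyladenosine in mRNA. Both groups were stable lines kept under puromycin, and per the study's methods such lines also carried a tdTomato transgene driven by the promoter of the endogenous retrovirus MERVL. The labels do not say which hairpin against Ythdf2 was used. Cells of both groups grew on gelatin in a serum replacement medium with leukemia inhibitory factor, and the medium itself was supplied with non-essential amino acids and stabilized glutamine. The study describes its replicates as independent biological ones.

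Amino acids cross the plasma membrane through carriers of overlapping specificity. Uptake of small neutral amino acids is driven by sodium (system A and system ASC carriers), while exchangers such as those of system L trade internal glutamine for leucine and other large neutral amino acids. Most Slc7 light chains reach the membrane only when bound to a heavy chain of the Slc3 family. Lysosomal members report stored amino acids to the kinase mTORC1, and carriers of the Slc6 family move neurotransmitters, creatine, taurine and glycine. Mouse ESCs are known to depend on threonine and glutamine from the medium.

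The targeted gene served as a check of the labels. Ythdf2 was at 58.7 and 56.9 TPM (reads divided by gene length and scaled to a common library total) in shScramble and at 18.9 and 19.7 TPM in shYthdf2, so that its level after knockdown was 34.2% of control. The libraries held between 31113006 and 36422510 counted reads. Markers of ESCs were high in all libraries, with Pou5f1 between 615 and 684 TPM, and 1 of 10 of them, Tdgf1, passed the test as lower in shYthdf2. Their log2 fold changes were above 0 for 3 and below 0 for 7. At an unadjusted p under 0.05 in edgeR there were 4, all lower (40% against 20.8% of all tested genes), and DESeq2 called 2. Nanog had 1116 and 1144 TPM in shScramble and 832 and 825 TPM in shYthdf2 (log2 fold change -0.41, adjusted p 0.059 in edgeR). Of 11 markers of 2-cell-like cells, a rare state of ESC cultures, 4 of the 10 tested passed as higher in shYthdf2, and their summed level went from 52.4 and 91.7 TPM to 121 and 386 TPM. No marker of trophoblast, primitive endoderm or fibroblasts passed at an adjusted p under 0.05 in edgeR or DESeq2. At an unadjusted p under 0.05 in edgeR there were 4 of 7, 0 of 5 and 1 of 4 tested markers, against 20.8% of all tested genes. Of these markers Tfap2c was higher in shYthdf2, and Gata3, Krt8, Krt18 and Col1a1 were lower. Krt18 also met the study's criteria in DESeq2 (unadjusted p up to 0.05, log2 change of 1 or more in either direction). The 6 fibroblast markers summed to 23.4 and 29.1 TPM in shScramble and 12.9 and 24.9 TPM in shYthdf2. Most of that was Thy1 (10.9 to 23.2 TPM), with Pdgfrb and Col1a1 at 0.56 to 4.63 TPM and Col1a2, Col3a1 and Lum at 0.215 TPM or below. Of 7 neural markers, all tested, 2 passed as higher in shYthdf2: Nes, an intermediate filament gene of neural progenitors, and Neurod1, a neuronal transcription factor. Their summed level was between 127 and 189 TPM in shScramble and between 231 and 290 TPM in shYthdf2, most of it from Tubb3, while the glial marker Gfap was at 0.10 to 0.29 TPM. In such bulk libraries, a change in the share of cells that express a gene and a change in its RNA per cell cannot be told apart, and the part of 2-cell-like or neural cells in the values of the carriers was not tested.

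Of the 60 members, 31 reached a mean of 1 TPM over the 4 libraries, the level called expressed here. The leading 5 were Slc7a5, Slc38a4, Slc7a3, Slc6a8 and Slc38a2. Slc7a5, the system L exchanger for leucine and other large neutral amino acids, was the most abundant member at a mean of 281 TPM, rank 572 among all rows. Slc38a4, a sodium-coupled carrier of small neutral amino acids, followed at 231 TPM and Slc7a3, a carrier of arginine and lysine, at 171 TPM. The creatine carrier Slc6a8 had 142 TPM and the system A carrier Slc38a2 also 142 TPM. From Slc7a5 to Slc38a2 each member overlapped the next in its range over the 4 libraries. Slc38a2, with at least 120 TPM in every library, lay clear of the member below it, Slc3a2, with at most 108 TPM. The first 10 members held between 82.6% and 84.6% of the summed TPM of the 60 in each library.

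**Figure D1:**
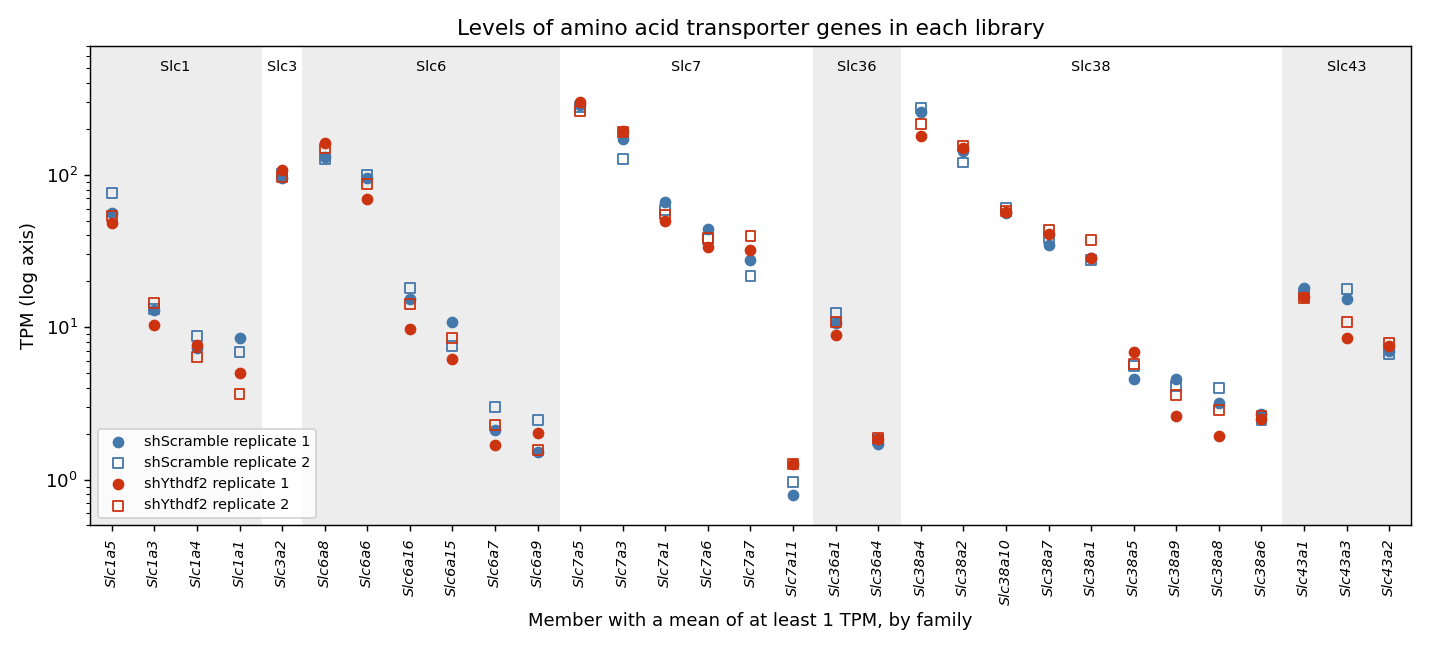
TPM of the 31 expressed members in each library on a log axis, grouped by family and ordered by mean within each. Filled circles are replicate 1 and open squares replicate 2, with shScramble in blue and shYthdf2 in red. The Slc7 and Slc38 families hold the highest points, Slc7a5 and Slc38a4, and Slc7a11 is the lowest expressed member.

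The families differed widely in how many members the cells used. The Slc38 family had 9 of 11 members expressed, Slc43 had 3 of 3, Slc1 had 4 of 7, Slc7 had 6 of 15, Slc36 had 2 of 4, Slc3 had 1 of 2 and Slc6 had 6 of 18. By summed level the Slc7 family held 33.3% to 39.3% of the member TPM, Slc38 30.2% to 33.8% and Slc6 15.9% to 16.5%. Slc7 was above Slc38 except in shScramble replicate 2, where Slc38 had 33.8% and Slc7 33.3%. Each of the other 4 families held less than 7%. The 60 members together came to 1623 and 1585 TPM in shScramble and to 1558 and 1598 TPM in shYthdf2. These totals overlapped between the groups.

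The members below this level included carriers known from other tissues. No read was counted in any library for 5 members: Slc1a2, the main glutamate carrier of astrocytes, Slc6a18, Slc7a12, Slc7a13 and Slc38a11. A count of 0 allows up to 3 reads, which came to between 0.016 and 0.146 TPM for these genes and libraries and covers counting error only. Another 11 members had reads but too few to be tested, at most 12 in a library. Among them were Slc6a3 and Slc6a4, the carriers of dopamine and serotonin, and Slc3a1, the heavy chain of the kidney carrier for cystine and cationic amino acids.

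Whether knockdown of Ythdf2 was accompanied by a change of these carriers was asked with edgeR's quasi-likelihood test over all 18341 genes with enough reads, with Benjamini-Hochberg adjustment over all of them. Of the 44 described members tested, Slc43a3, a carrier of purine nucleobases, fell at an adjusted p under 0.05, and none of these 44 rose. That is 2.27% of them, against 3.91% of all tested genes (2.43% higher and 1.49% lower). Of the 44, 5 were higher with an unadjusted p under 0.05, and DESeq2 called 1 of these 5, Slc7a7. Of the other Slc genes 24 of 200 tested passed, and the difference between these shares was not tested. The median log2 fold change of the 44 members was -0.10, against 0.00 over all tested genes, with 20 members above 0 and 24 below.

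A weaker criterion gave more members. At an unadjusted p under 0.05 there were 13 members, 5 higher and 8 lower, or 29.5% of the 44 against 20.8% of all genes. Groups that did not overlap in scaled reads were found for 27 members (61.4%), against 51.8% of all tested genes. DESeq2 on the same counts called 4 of the 34 described members for which it gave an adjusted p (11.8%, against 8.90% of all such genes): Slc7a7 higher, and Slc43a3, Slc38a4 and Slc1a1 lower. Under the study's criteria in DESeq2 (unadjusted p up to 0.05, change of 1 or more on the log2 scale in either direction), 1 of them passed (Slc7a9), 1.82% of the 55 with a read, against 2.88% of all genes with a read.

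**Figure D2:**
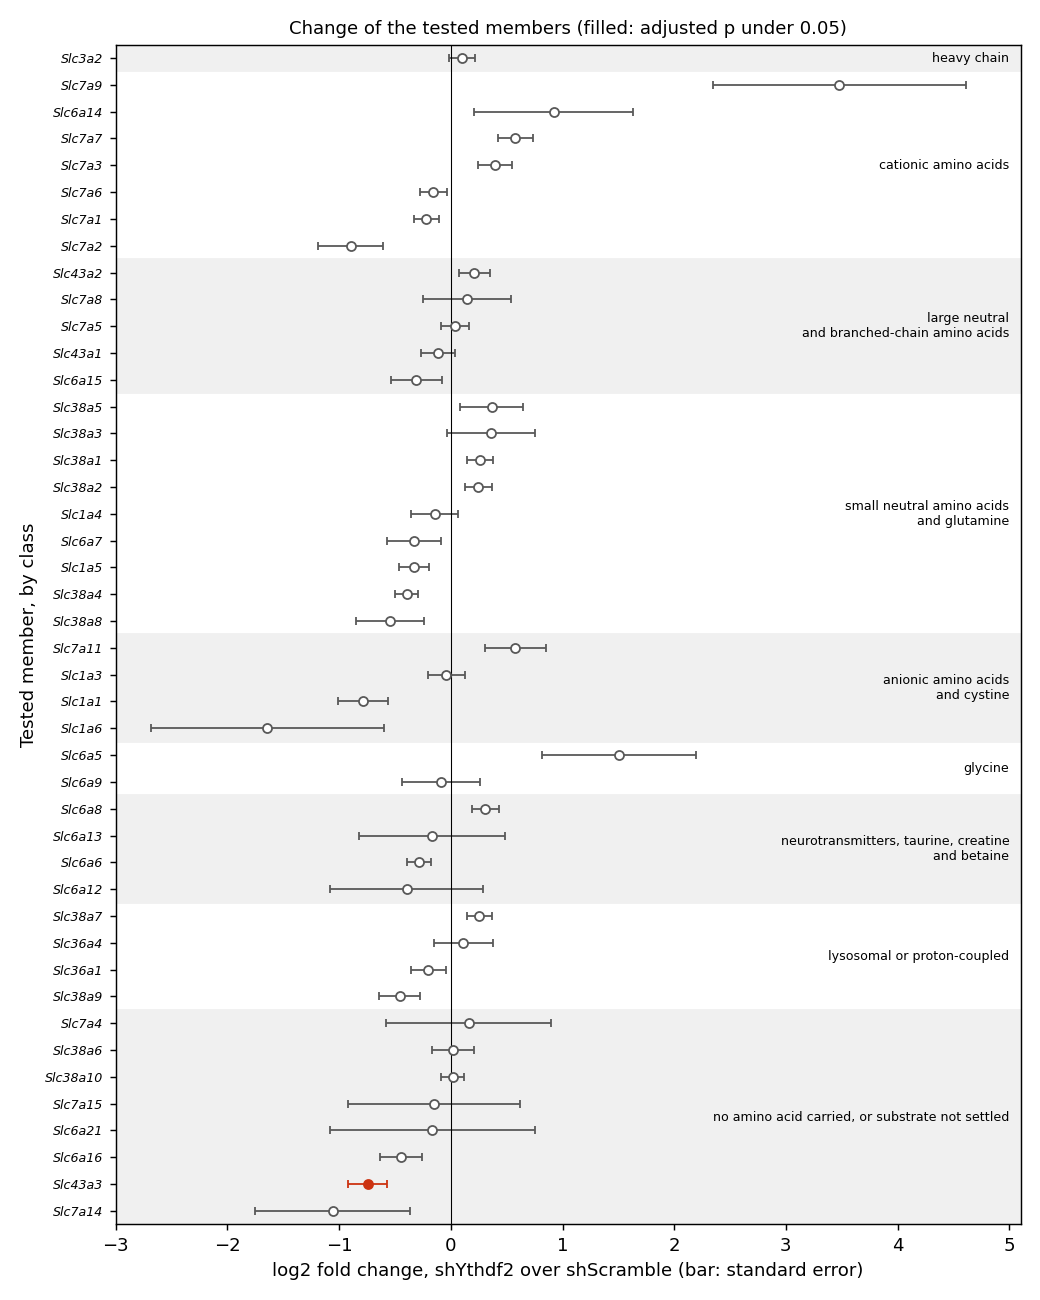
Log2 fold change of shYthdf2 over shScramble for the 44 tested members described, grouped by what they carry. Bars are standard errors, and filled red points have an adjusted p under 0.05 in edgeR's quasi-likelihood test. Of the points shown, Slc43a3 (-0.74) is filled, and Slc7a9, Slc6a5 and Slc1a6 have large changes with wide bars.

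Of the carriers of creatine, taurine and glycine in the Slc6 family, the abundant ones had small estimates. Slc6a8, the creatine carrier, had 131 and 127 TPM in shScramble and 162 and 149 TPM in shYthdf2, a log2 fold change of 0.31 (SE 0.12, adjusted p 0.17 in edgeR). Slc6a6, the taurine carrier, had 95.5 and 99.1 TPM against 69.5 and 87.1 TPM (log2 fold change -0.28, SE 0.11, adjusted p 0.17). For both genes the groups did not overlap, but neither passed over all genes in the main test. With the replicate number as a block in edgeR both passed (adjusted p 0.017 and 0.027), where 19.2% of all genes did. Both estimates moved with the knockdown library left out. Slc6a8 came to 0.17 without shYthdf2 replicate 1 and 0.43 without shYthdf2 replicate 2, and Slc6a6 to -0.19 and -0.38. The glycine carrier Slc6a9 was expressed at 1.51 and 2.46 TPM in shScramble and 2.03 and 1.56 TPM in shYthdf2, with overlapping groups (log2 fold change -0.09, SE 0.35). Slc6a5, a glycine carrier of inhibitory neurons, was among the 5 members with the largest estimates, yet on 18 and 4 reads against 23 and 41 (log2 fold change 1.50, SE 0.69, adjusted p 0.25). So was Slc6a14, a carrier of neutral and cationic amino acids known from mucosal tissue, on 12 and 6 reads against 23 and 12 (log2 fold change 0.92, SE 0.71, adjusted p 0.51).

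Heavy and light chains were examined next, since the exchangers they form carry leucine, cystine and cationic amino acids out of and into cells. Slc3a2, the heavy chain that most light chains need, and Slc7a5, its main partner here, did not differ between the groups beyond the spread of the libraries. Slc3a2 had 95.3 and 101 TPM in shScramble and 108 and 97.1 TPM in shYthdf2 (log2 fold change 0.10, 95% interval -0.16 to 0.37). Slc7a5 had 285 and 279 TPM against 299 and 262 TPM (log2 fold change 0.04, 95% interval -0.24 to 0.31). Slc7a5 made up 76.6% to 81.9% of the summed TPM of the light chains that pair with Slc3a2, and these light chains together had 3.36 to 3.75 times the TPM of Slc3a2, with overlapping groups. These ratios were composed after the values were seen, and they describe RNA only.

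The other light chains were of lower level, and Slc7a7 had the lowest p among them. Slc7a7, which exchanges cationic for neutral amino acids (system y+L), had 27.6 and 21.6 TPM in shScramble and 32.0 and 39.9 TPM in shYthdf2. Both knockdown libraries were above both controls. Its log2 fold change was 0.58 (SE 0.16), with an adjusted p of 0.073 in edgeR, which missed the threshold, and of 0.018 in DESeq2. It was 0.39 without shScramble replicate 2 (adjusted p 0.33), and it passed in edgeR with any of the other 3 libraries left out (0.48 to 0.79). Slc7a6, the second carrier of this system, had 43.9 and 38.1 TPM against 33.5 and 38.4 TPM, with overlapping groups (log2 fold change -0.16, SE 0.12). As a share of the pair, Slc7a7 was 38.6% and 36.1% in shScramble and 48.8% and 51.0% in shYthdf2. Of its exon bases, 6.87% are shared with Oxa1l on the opposite strand, a gene at 105 to 121 TPM in all 4 libraries, and reads lying over both genes were left out by the counting.

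The cystine and glutamate exchanger Slc7a11, which supplies cysteine for glutathione, stood at the edge of expression, with 0.79 and 0.97 TPM in shScramble and 1.27 and 1.27 TPM in shYthdf2 (log2 fold change 0.58, SE 0.27, adjusted p 0.26 in edgeR). Slc7a8, a further system L light chain, was at 0.38 to 0.55 TPM and did not separate the groups. Slc7a10 had at most 7 reads in a library, Slc7a13 had none, and neither was tested. Slc7a9, the partner of Slc3a1, had 0 and 2 reads in shScramble and 10 and 16 reads in shYthdf2. The pooled ratio per counted read was 12.5, with an exact 95% counting interval from 3.13 to 109. This interval treats reads as independent, and the mates of a pair were counted apart. The adjusted p of Slc7a9 was 0.12 in edgeR. Slc3a1 itself had at most 4 reads in a library, but 26.3% of its exon bases are shared with Prepl on the opposite strand. Reads lying over both of those genes were left out by the counting.

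The amino acid response element, the site of ATF4 dimers in genes that answer to amino acid shortage, was looked for in the promoters of the members because ATF4 is known to act on Slc7a11 and other carriers. The letters searched were TGATGNAAN on both strands, in windows from 250 bases before to 50 bases after each RefSeq start (GRCm38.p6). Of the members, 43 had a window, and 4 of them held a match: Slc7a11, Slc7a7, Slc1a4 and Slc6a21. A match was held by 4.50% of all genes with a window and by 3.95% of all windows. The sites of the light chains Slc7a11 and Slc7a7 and of the neutral carrier Slc1a4 are shown with the matched letters in capitals, each on the strand of its gene. The matches of Slc7a11 lie on opposite strands and begin at -66 and -48 from its start. Slc7a7 has a match at -141 and another at -1 from 1 annotated start, and the latter site lies at -243 from a second start. That of Slc1a4 begins at -5.
Slc7a11, chr3:50443652-50443681, minus strand: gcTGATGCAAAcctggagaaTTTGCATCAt
Slc7a7, chr14:54418067-54418096, minus strand: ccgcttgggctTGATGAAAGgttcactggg
Slc7a7, chr14:54417923-54417952, minus strand: tagaagcTGATGCAACagcttccccgaggg
Slc1a4, chr11:20332700-20332729, minus strand: gtgcctcctgcGTTGCATCAtctccagcct
A match is a description of these letters and no evidence of binding. Beside them, the RNA of Slc1a4, a carrier of alanine, serine and cysteine, was at 7.30 and 8.74 TPM in shScramble and 7.64 and 6.40 TPM in shYthdf2, with overlapping groups, and Slc6a21 was at most 0.43 TPM.

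The carriers of cationic amino acids proper (system y+) were led by Slc7a3, which had more TPM than Slc7a1 in every library. Slc7a3 had 173 and 127 TPM in shScramble and 195 and 191 TPM in shYthdf2, and Slc7a1, the widely expressed arginine carrier, had 65.9 and 58.4 TPM against 49.5 and 54.8 TPM. The groups did not overlap for either gene, in opposite directions. Slc7a3 had a log2 fold change of 0.40 (SE 0.15, adjusted p 0.18 in edgeR) and Slc7a1 of -0.22 (SE 0.11, adjusted p 0.30). Both values moved with the control left out: Slc7a3 came to 0.17 without shScramble replicate 2 (adjusted p 0.77) and 0.66 without shScramble replicate 1 (adjusted p 0.0064), and Slc7a1 to -0.33 and -0.10. Slc7a3 also passed without shYthdf2 replicate 2 (0.48, adjusted p 0.0016). Slc7a2, another carrier of the system, was at 1.41 and 1.17 TPM against 0.69 and 0.67 TPM (log2 fold change -0.90, SE 0.29, adjusted p 0.12). Slc7a3 thus made up 72.0% and 68.1% of the summed TPM of the 3 genes in shScramble and 79.5% and 77.5% in shYthdf2. None of the 7 members carrying cationic amino acids passed in edgeR. There, 4 had an unadjusted p under 0.05 (57.1%, against 20.8% of all tested genes). In DESeq2 1 passed (20% of those with an adjusted p, against 8.90% of all such genes).

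Carriers of small neutral amino acids and glutamine included Slc38a4, which had the lowest p of the members above 100 TPM but did not pass in edgeR. Slc38a4 is imprinted and read from the paternal allele. It had 256 and 273 TPM in shScramble and 179 and 214 TPM in shYthdf2, so both knockdown libraries were below both controls. Its log2 fold change was -0.40 (SE 0.10), with an adjusted p of 0.064 in edgeR and 0.0086 in DESeq2. In edgeR it passed without shYthdf2 replicate 2 (adjusted p 0.0015) and not with another library left out (0.054 to 0.27). The related system A genes Slc38a2 and Slc38a1 had estimates in the other direction. Slc38a2 had 142 and 120 TPM against 151 and 154 TPM (log2 fold change 0.25, SE 0.12, adjusted p 0.28). Slc38a1 had 28.4 and 27.4 TPM against 28.4 and 37.1 TPM (log2 fold change 0.26, SE 0.12, adjusted p 0.25), its higher mean resting on shYthdf2 replicate 2.

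Put together, Slc38a4 was 60.0% and 64.9% of the summed TPM of these 3 genes in shScramble and 50.0% and 52.9% in shYthdf2, while Slc38a2 went from 33.3% and 28.6% to 42.1% and 37.9%. The shares of the groups did not overlap. An exact permutation test of 2 libraries against 2 has 0.333 as its smallest two-sided p, and no test of such shares is given. They too were composed after the values were seen.

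**Figure D3:**
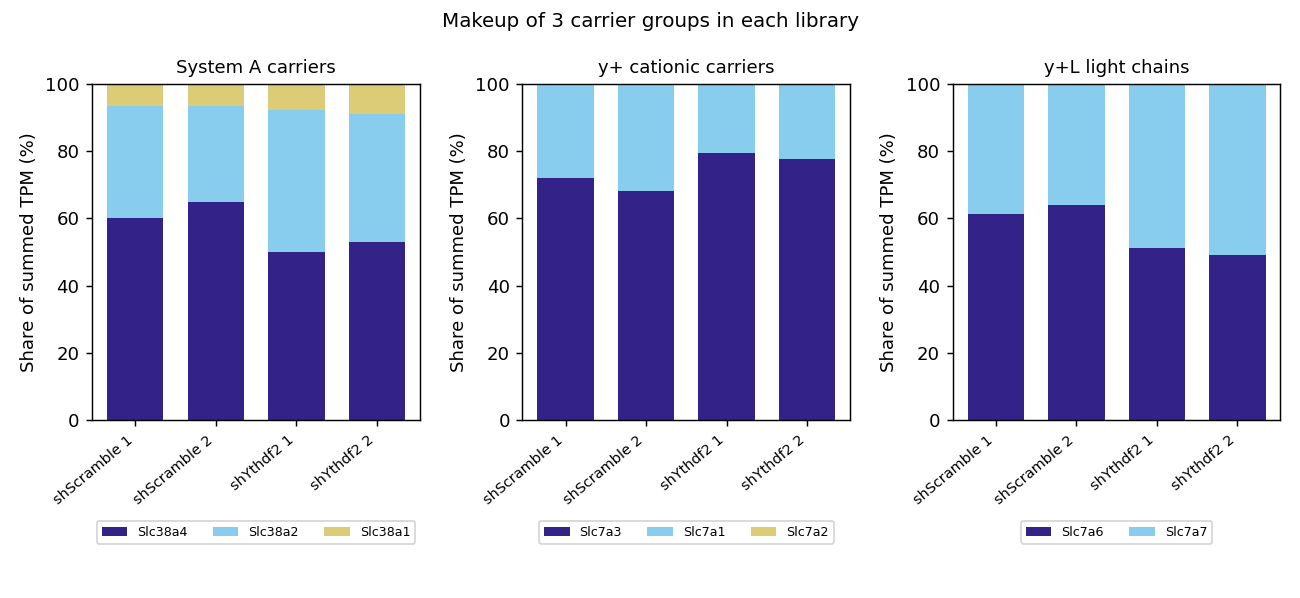
Share of the summed TPM, in percent, that each gene took in each library, for the system A genes Slc38a4, Slc38a2 and Slc38a1, for Slc7a3, Slc7a1 and Slc7a2 (the last under 1% and hardly visible), and for Slc7a6 and Slc7a7. In both shYthdf2 libraries the share of Slc38a4 is lower and the shares of Slc7a3 and Slc7a7 are higher than in both shScramble libraries.

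Slc1a5, the exchanger through which many dividing cells take up glutamine (ASCT2), was at 56.5 and 75.6 TPM in shScramble and 48.2 and 53.9 TPM in shYthdf2. The groups did not overlap, but the controls differed from each other by more than the nearer control differed from the knockdown. Its log2 fold change was -0.33 (SE 0.14, adjusted p 0.20 in edgeR), and -0.13 without shScramble replicate 2. None of the 9 tested members of this class passed in edgeR, with 2 at an unadjusted p under 0.05 (22.2%, against 20.8% of all tested genes). In DESeq2 1, Slc38a4, passed (11.1%, against 8.90% of all genes with an adjusted p).

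Glutamate carriers were of low level. Slc1a3, known from glia, had 12.9 and 13.1 TPM in shScramble and 10.4 and 14.4 TPM in shYthdf2, with overlapping groups (log2 fold change -0.04, 95% interval -0.41 to 0.33). Slc1a1, which brings in glutamate and cysteine, had 8.50 and 6.88 TPM against 5.00 and 3.62 TPM. For Slc1a1 both knockdown libraries were below both controls, with a log2 fold change of -0.79 (SE 0.22), an adjusted p of 0.082 in edgeR and 0.016 in DESeq2. In edgeR it passed without shScramble replicate 2 or shYthdf2 replicate 1 (-0.96 and -1.12) and not without either of the others (-0.60 and -0.52). The annotation lists Slc1a1 on chromosome 19 and also on an alternate contig, and its deposited length counts both copies, so its level in TPM is a low estimate. Slc1a6, a glutamate carrier of cerebellar neurons, had 17 and 14 reads against 10 and 0 (log2 fold change -1.64, SE 1.05). All 5 tested members of the Slc1 family had log2 fold changes below 0, but Slc1a3 turned to 0.12 without shYthdf2 replicate 1 and Slc1a4 to 0.04 without shYthdf2 replicate 2. Of the 5, none passed in edgeR, and 2 had an unadjusted p under 0.05 there (40%, against 20.8% of all tested genes). In DESeq2 1, Slc1a1, passed (25% of those with an adjusted p, against 8.90% of all such genes).

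**Figure D4:**
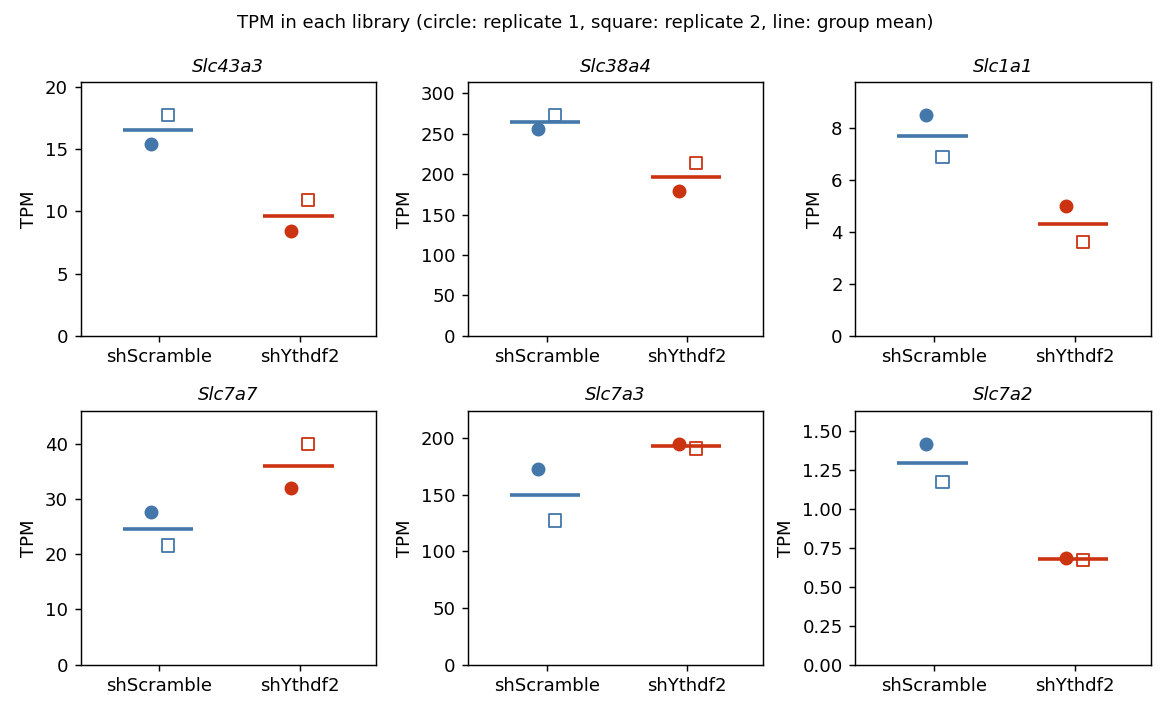
TPM in each library for Slc43a3, Slc38a4, Slc1a1, Slc7a7, Slc7a3 and Slc7a2, with axes from 0. Circles are replicate 1, squares replicate 2 and lines group means. All 6 genes had an unadjusted p under 0.05 in edgeR, and Slc43a3 alone of them has an adjusted p under 0.05 there. The groups do not overlap in any of the 6 panels, which in scaled reads holds for 51.8% of all tested genes.

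Slc43a3 fell after knockdown. It differs from the rest of its family, since Slc43a1 and Slc43a2 carry large neutral amino acids and Slc43a3 carries purine nucleobases. Slc43a3 (chr2:84936545-84958509, mm10, plus strand) had 15.4 and 17.7 TPM in shScramble and 8.43 and 10.9 TPM in shYthdf2, from 723 and 704 reads against 398 and 489. Both knockdown libraries were below both controls. The log2 fold change was -0.74 (SE 0.17, adjusted p 0.045 in edgeR), a level 1.68-fold lower. The call lies close to the threshold: the adjusted p was 0.051 with upper quartile scaling, 0.053 with library totals only, 0.10 without shScramble replicate 2 and 0.080 without shYthdf2 replicate 1, and it was at most 0.045 in the other 10 settings with an adjusted p.

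The amino acid carriers of the same family did not pass. Slc43a1 had 18.2 and 16.7 TPM in shScramble and 15.9 and 15.4 TPM in shYthdf2 (log2 fold change -0.12, SE 0.15), and 20.9% of its exon bases are shared with an antisense gene at under 1 TPM. Slc43a2 had 6.98 and 6.66 TPM against 7.56 and 7.84 TPM (log2 fold change 0.21, SE 0.14). The summed TPM of the family was 40.5 and 41.1 in shScramble and 31.9 and 34.2 in shYthdf2, most of the difference coming from Slc43a3.

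Lysosomal and proton-coupled carriers showed small estimates in both directions. Slc38a7, which exports glutamine from lysosomes, had 34.5 and 38.3 TPM in shScramble and 40.8 and 43.7 TPM in shYthdf2 (log2 fold change 0.25, SE 0.11, adjusted p 0.24 in edgeR). Slc38a9, the lysosomal arginine sensor of mTORC1, had 4.58 and 4.10 TPM against 2.61 and 3.60 TPM (log2 fold change -0.46, SE 0.18, adjusted p 0.19). The proton-coupled carriers Slc36a1 and Slc36a4 were at 8.88 to 12.4 TPM and at 1.71 to 1.86 TPM. None of the 4 tested members passed in edgeR or DESeq2, with 2 at an unadjusted p under 0.05 in edgeR (50%, against 20.8% of all tested genes).

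Among members with no settled substrate, Slc38a10 was the most abundant, with 56.3 and 60.8 TPM in shScramble and 57.2 and 57.9 TPM in shYthdf2 (log2 fold change 0.02, 95% interval -0.22 to 0.25). Slc6a16 had 15.2 and 18.0 TPM against 9.76 and 14.2 TPM (log2 fold change -0.44, SE 0.19, adjusted p 0.21 in edgeR). Slc7a14 was among the 5 largest estimates on 13 and 19 reads against 8 and 8 (log2 fold change -1.06, SE 0.69).

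Genes that act beside these carriers were read from 3 further lists. These lists were chosen with earlier results of these data known, so their shares are descriptions. Of 27 other amino acid and peptide carriers 21 were tested and 4 passed, 2 in each direction (19.0% against the 3.91% of all genes), with a median log2 fold change of 0.02. The 4 are also among the 24 of 200 tested other Slc genes that passed (12.0%). Slc25a22, a mitochondrial glutamate carrier, rose from 12.2 and 13.6 TPM to 19.3 and 22.4 TPM (log2 fold change 0.73, SE 0.15, adjusted p 0.031 in edgeR), and Slc25a12, a mitochondrial aspartate and glutamate carrier, rose from 7.30 and 6.54 TPM to 10.2 and 10.9 TPM (0.65, SE 0.14, adjusted p 0.037). The genes that fell were Slc16a10, a carrier of aromatic amino acids, from 2.70 and 3.07 TPM to 1.31 and 1.38 TPM (log2 fold change -1.06, SE 0.24, adjusted p 0.044), and Slc17a7, which loads glutamate into synaptic vesicles, from 5.08 and 6.23 TPM to 1.86 and 2.65 TPM (log2 fold change -1.29, SE 0.28, adjusted p 0.037).

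Of 34 genes of amino acid sensing by mTORC1 and GCN2, all tested, 2 rose and none fell in edgeR, with a median log2 fold change of 0.02. That is 5.88%, against 3.91% of all tested genes, and DESeq2 called 8.82%, against 8.90%. Sesn2, a leucine sensor that holds mTORC1 back, rose from 94.1 and 72.0 TPM to 144 and 130 TPM (log2 fold change 0.76, SE 0.15, adjusted p 0.031 in edgeR). Rragd, a Rag GTPase that brings mTORC1 to lysosomes, rose from 11.7 and 12.7 TPM to 23.9 and 20.1 TPM (log2 fold change 0.90, SE 0.15, adjusted p 0.017). Both passed in all 14 other settings with an adjusted p, and neither reached the change of 1 that the study's criteria ask for.

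Of 36 tested enzymes of amino acid synthesis and breakdown, 4 rose and none fell in edgeR, with a median log2 fold change of 0.03. That is 11.1%, against 3.91% of all tested genes, and DESeq2 called 16.7%, against 8.90%. Ass1, argininosuccinate synthase of the arginine pathway, rose from 257 and 262 TPM to 461 and 408 TPM (log2 fold change 0.78, SE 0.12, adjusted p 0.011 in edgeR). Tdh, threonine dehydrogenase, on which mouse ESCs are known to depend, rose from 204 and 196 TPM to 293 and 276 TPM (0.55, SE 0.11, adjusted p 0.032). The others were Amt of the glycine cleavage system, from 79.9 and 112 TPM to 140 and 160 TPM (log2 fold change 0.68, SE 0.14, adjusted p 0.034), and Cth, which makes cysteine, from 75.8 and 77.5 TPM to 104 and 113 TPM (0.54, SE 0.11, adjusted p 0.029). Without shScramble replicate 2 the adjusted p was 0.083 for Tdh, 0.072 for Cth, 0.13 for Slc25a12 and 0.083 for Slc16a10, and without shScramble replicate 1 it was 0.083 for Amt.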

How the data were processed

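Poly(A) RNA of 4 libraries was sequenced. The authors deposited 1 table of raw read counts per gene, with 0 other columns of per-sample values. Per the file headers, featureCounts version 2.0.3 counted reads over exons of the RefSeq annotation of mm10, with the paired-end option but without counting pairs and with no strand option, so counts are reads and antisense overlaps were not separated. The submitters' processing notes also list fastp 0.19.4, HISAT2 2.2.1 and DESeq2 1.40.2.

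TPM was computed from the deposited counts and gene lengths. Groups were compared with edgeR version 4.0.16 (quasi-likelihood test, two-sided, TMM scaling, filterByExpr with a minimum count of 10) and Benjamini-Hochberg adjustment, and with DESeq2 version 1.42.0 and limma version 3.58.1 as alternatives. The 95% intervals used the t distribution with residual plus prior degrees of freedom. Total counts of 31113006 to 36422510 reads made 3 reads, the limit that a count of 0 allows, worth 0.082 to 0.096 CPM.

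Named members were those with an adjusted or unadjusted p under 0.05, the 2 most abundant of each of the 7 families, the 5 largest changes among tested members, and heavy and light chains; genes of the other lists were named at an adjusted p under 0.05. Slc1a4, Slc6a3, Slc6a4, Slc6a9, Slc6a21, Slc7a1, Slc38a1, Slc38a10, Slc43a2, members without reads or with a promoter match, and all ratios between members were added after values were seen. Of the 61 members 1 is not reported here, so counts, shares and sums over members cover 60 and are no statement about the whole set. The members and lists were chosen with earlier results of these data known. Promoters came from RefSeq (GRCm38.p6). Other scalings, filters, tools, halved counts, a replicate block, leaving out each library and, added after seeing the data, leaving out genes listed on an extra contig were tried.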

Additional observations from a re-analysis of the deposited data

How the results depend on the processing

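Described members called higher and lower (0 and 1) became 2 and 3 with no filter on low counts, 1 and 3 with DESeq2, and 1 and 0 under the study's criteria; with upper quartile scaling or library totals only, 0 were called lower. With single libraries left out, 1 group held 1 library. Calls then differed with the library left out, both among the members and over all genes, and no counts of them are given. Replicate numbers are shared across the groups but nothing says that they pair the libraries, whose deviations correlated at 0.225; with the replicate number as a block 4 members were called higher and 8 lower (27.3% of those tested, against 19.2% of all genes). The cause of these differences was not tested. Expressed members numbered 28 to 33 over the other thresholds and with single libraries left out.

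By class, the block gave 1 call for anionic, 2 for small neutral, 4 for cationic and 1 for lysosomal carriers. It gave 2, Slc6a6 and Slc6a8, among carriers of neurotransmitters, taurine, creatine and betaine. Another 2, Slc43a3 and Slc6a16, were in the class with no amino acid carried or no settled substrate. The other carriers, sensing and enzyme lists had 10, 9 and 12 calls with the block, which called 19.2% of all genes. DESeq2 gave 7 among other carriers and 1 each among anionic, small neutral and cationic members; no filter gave 1, 1 and 2 there. The class with no amino acid carried or no settled substrate had 0 calls with upper quartile scaling or library totals. Leaving out single libraries gave 0 to 1 call for anionic and small neutral, 0 to 2 for cationic, 0 to 2 for neurotransmitter and 0 to 2 for unsettled members, and 2 to 6, 2 to 5 and 3 to 10 for the 3 further lists. The log2 ratio of the summed Slc43 level was -0.31 by TPM and -0.14 by scaled reads not divided by length.

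Leaving out 1 library, the log2 ratio of the summed level ranged from -0.030 to 0.029 for Slc6 (0.00014 with all) and from -0.185 to -0.034 for Slc38. The sign turned with 1 library left out for 14 of the 44 tested members. Of those named, Slc1a3 ranged from -0.221 to 0.116, Slc1a4 from -0.354 to 0.0368, Slc3a2 from -0.0475 to 0.238, Slc7a5 from -0.136 to 0.192, Slc7a8 from -0.0367 to 0.346, Slc38a10 from -0.0454 to 0.0731 and Slc6a21 from -0.962 to 1.59. Slc6a9 ranged from -0.379 to 0.271. The turns came without shYthdf2 replicate 1 for Slc1a3, Slc3a2, Slc7a5 and Slc38a10, without shScramble replicate 1 for Slc7a8 and Slc38a10 (-0.0144), without shScramble replicate 2 for Slc7a5 (-0.0030), Slc6a9 and Slc6a21, and without shYthdf2 replicate 2 for Slc1a4, Slc6a9 (0.149) and Slc6a21 (0.269). Slc38a10 also turned with upper quartile scaling (-0.0026), and Slc6a21 with limma-voom (0.237) and the block (0.0201). Members with under 20 reads per library, such as Slc7a9 and Slc1a6, are measured poorly at this depth. With 2 libraries per group, small changes can go uncalled.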
